A study of Mus musculus with 16 samples.

Results

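The genes described here are the 30 that carry glucose into the heart cell, break it down to pyruvate and lactate, store it as glycogen and pass pyruvate into mitochondria. They were chosen by symbol, from a list drawn up by function with earlier results of these data known. All 30 were found among the 55487 genes of the count tables. In the left ventricle of old mice no member passed edgeR's test between multiparous and virgin hearts. DESeq2 called 1, Gapdh, as lower, in a fit that called 1.02% of the genes with an adjusted p. 27 of the 30 had a lower mean in the multiparous hearts, where 51.4% of all genes tested did. When the level of cardiomyocyte markers was added to the fit, 17 of the 30 were lower, as were 9249 of 17813 genes. The amounts were small: the multiparous mean was between 88.9% and 106% of the virgin mean. The lowest percentages belonged to Gapdh, the glyceraldehyde-3-phosphate dehydrogenase of mid-glycolysis, and to Pdhb, the beta subunit of the first enzyme of the pyruvate dehydrogenase complex.

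The study asked how a history of pregnancies bears on the heart. It sequenced RNA from 16 hearts, 8 multiparous and 8 virgin, all C57Bl/6J mice aged 24 months, and neither group received any intervention. The multiparous mice had been through more than 3 pregnancies and the virgin mice through none. The tissue was the middle section of the left ventricle, frozen after the heart had been flushed with cold saline, and the libraries were strand-specific total RNA libraries depleted of ribosomal RNA. In the submitters' sample descriptions 4 multiparous libraries are coded P and the other 4 MP, and all virgin libraries AA. No label explains these codes, so parity and library code cannot be told apart. The p-values cover only the spread among these 16 libraries, since no label says which hearts shared a litter, cage or day.

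Heart muscle takes up glucose mainly through the insulin-responsive transporter GLUT4 and, to a smaller extent, GLUT1. Hexokinase traps the sugar as glucose-6-phosphate, phosphofructokinase commits it to glycolysis, and the lower part of the pathway yields ATP, NADH and pyruvate. Pyruvate is either reduced to lactate or carried into mitochondria and oxidised by the pyruvate dehydrogenase complex, which its kinases switch off. The adult heart burns mostly fatty acids, and a shift towards glucose is a known feature of the hypertrophied heart.

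RefSeq promoter windows on GRCm38.p6, each running from upstream of an annotated transcription start to a little way past it, were found for 29 of the 30 members, 47 windows in all, and none was found for Slc2a4. The windows of the 4 members with the smallest p, and the Ldha window that held the most matches among the 47, are printed 5' to 3' on the strand of the gene, with capitals marking each match to the core of the hypoxia response element (ACGTG or GCGTG, searched on both strands) or to the palindromic E-box CACGTG, which contains ACGTG on both strands, and to AAGGTCA, an oestrogen-related receptor half-site that is absent from these 5 windows. They lie at chr6:125165724-125166023 (minus strand) for Gapdh, chr14:8172943-8173242 (minus strand) for Pdhb, chr17:8283537-8283836 (plus strand, the first of 2 windows) for Mpc1, chr7:126800398-126800697 (minus strand, the first of 3 windows) for Aldoa and chr7:46845554-46845853 (plus strand, the first of 2 windows) for Ldha.
Gapdh: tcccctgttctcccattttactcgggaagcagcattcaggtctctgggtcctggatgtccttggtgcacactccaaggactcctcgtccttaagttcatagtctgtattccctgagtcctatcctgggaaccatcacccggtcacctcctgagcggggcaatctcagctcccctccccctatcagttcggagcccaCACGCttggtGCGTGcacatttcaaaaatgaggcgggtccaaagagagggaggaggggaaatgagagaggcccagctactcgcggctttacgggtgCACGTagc
Pdhb: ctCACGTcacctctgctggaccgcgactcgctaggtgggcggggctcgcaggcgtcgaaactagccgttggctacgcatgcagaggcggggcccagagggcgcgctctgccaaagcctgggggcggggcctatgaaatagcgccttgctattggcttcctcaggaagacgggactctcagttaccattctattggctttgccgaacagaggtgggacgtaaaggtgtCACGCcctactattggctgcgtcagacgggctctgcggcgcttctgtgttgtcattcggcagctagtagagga
Mpc1: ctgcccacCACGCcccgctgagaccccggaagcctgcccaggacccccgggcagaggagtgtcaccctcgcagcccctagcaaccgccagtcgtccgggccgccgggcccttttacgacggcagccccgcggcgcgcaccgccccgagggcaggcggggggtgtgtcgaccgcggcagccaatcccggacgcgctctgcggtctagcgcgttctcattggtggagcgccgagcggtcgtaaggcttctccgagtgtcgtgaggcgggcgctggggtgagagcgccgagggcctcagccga
Aldoa: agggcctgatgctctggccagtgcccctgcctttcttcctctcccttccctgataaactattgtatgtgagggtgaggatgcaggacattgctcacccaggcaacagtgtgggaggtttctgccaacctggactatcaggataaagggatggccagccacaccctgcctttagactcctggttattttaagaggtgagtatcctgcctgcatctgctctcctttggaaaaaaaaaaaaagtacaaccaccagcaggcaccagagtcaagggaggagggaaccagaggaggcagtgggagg
Ldha: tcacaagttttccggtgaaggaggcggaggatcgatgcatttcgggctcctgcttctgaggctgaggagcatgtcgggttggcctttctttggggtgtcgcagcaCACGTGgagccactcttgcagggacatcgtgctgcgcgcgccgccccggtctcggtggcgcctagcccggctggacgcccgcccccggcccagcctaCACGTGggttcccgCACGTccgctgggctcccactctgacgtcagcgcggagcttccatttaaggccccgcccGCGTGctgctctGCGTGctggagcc

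The hypoxia response core was found 3 times in the Gapdh window, 2 times in that of Pdhb, 1 time in that of Mpc1, 7 times over both strands in that of Ldha and not in the printed Aldoa window. Of the 47 member windows 32 (68.1%) held it, against 14380 of all 32851 windows (43.8%). The E-box was present in 4 member windows (8.51%, against 7.15% of all windows), those of Pfkm, Pfkfb2, Ldha and Pdk2. AAGGTCA was present in 3 (6.38%, against 4.72% of all windows), those of Pfkfb1, Tpi1 and Eno1. Some windows of the same gene overlap, and a match describes the letters only.

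All 30 members were well counted, with 329 reads for the least covered member in the least covered library. Gene counts per library were 34560606 to 58890976, apart from virgin 8 with 228325238, and the 30 members together held 1.55% to 1.73% of them. A count of 3 corresponds to between 0.0134 and 0.0844 CPM (read counts scaled to the library's total) across libraries, far under any member. Levels are CPM scaled with edgeR's TMM factors. Virgin 3, 1 and 6 carried the most reads of kidney tubule markers (178, 165 and 134 CPM in sum), and virgin 1 the fewest of cardiomyocyte markers. To compare levels between genes, CPM was divided by the length of the merged exons in kb. On that per-length scale, in the order of the mean over all 16 libraries, Aldoa (aldolase A) led with 839 CPM per kb in virgin and 785 in multiparous hearts, followed by the heart-type lactate dehydrogenase subunit Ldhb (641 and 626), Gapdh (669.5 and 595), the muscle enolase Eno3 (419 and 396) and the muscle glycogen phosphorylase Pygm (409 and 398). Over all libraries Ldhb (633 CPM per kb) and Gapdh (632) lay within their spread of each other. The lowest were Pfkp (4.13 and 3.88 CPM per kb) and Pfkfb1 (2.83 and 3.01). This order depends on the merged exon length, which was 4133 bases for Gapdh, 2911 for Aldoa and 13401 for Pfkp. In CPM without length Gapdh was the highest, at 2614 over all libraries, followed by Aldoa at 2364. On that scale Pfkp (53.6 CPM) lay above Pgam1 (25.0) and Slc2a1 (20.6).

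**Figure D1:**
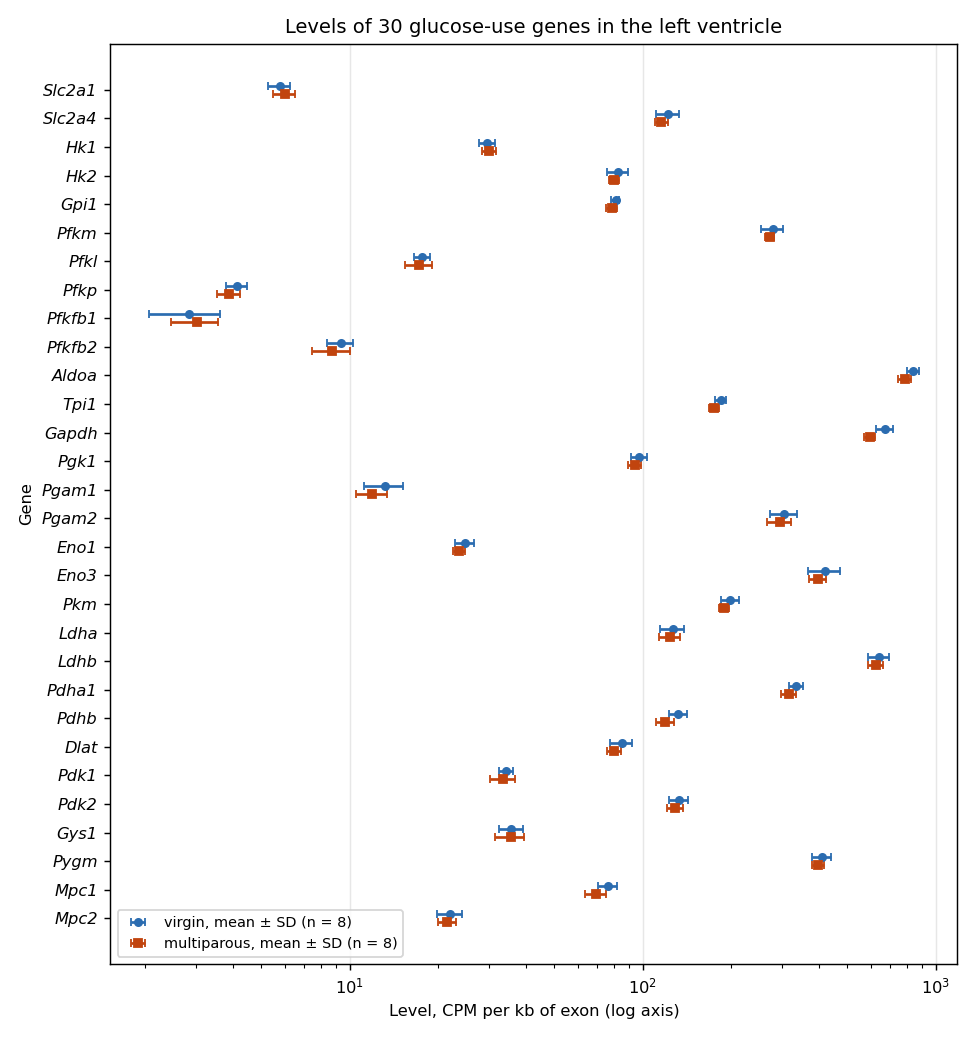
Level of the 30 members in CPM per kb of exon on a log axis, as mean ± SD of 8 virgin (circles) and 8 multiparous (squares) libraries. The means span from 2.83 for Pfkfb1 to 839 CPM per kb for Aldoa, and in each gene the markers of both groups lie close together.

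The main comparison fitted edgeR's quasi-likelihood test to all 17813 genes that passed the filter on low counts, with Benjamini-Hochberg adjustment over all of them. It called 0.0112% of the genes tested (1 higher, 1 lower) and 0 of the 30 members. At an unadjusted p under 0.05 there were 4 members, all lower in multiparous hearts (Gapdh, Pdhb, Mpc1 and Aldoa), where 4.09% of all genes tested reached that mark with a lower mean and 4.04% with a higher one. DESeq2 called 1 member, Gapdh (DESeq2 adjusted p = 0.0381), in a fit that called 1.02% of the genes with an adjusted p. Over all 30 alternative settings the adjusted p of Gapdh ran from 0.0381 to 0.785 and its log2 fold change from -0.20 to -0.13. Limma voom called 0 members, with the unadjusted mark reached by 4. Means were lower in multiparous hearts for 27 of 30 members, against 51.4% of all genes, and the members' median log2 fold change was -0.053 against -0.0030 over all genes tested. For 20 of the 30 the multiparous mean was at least 95% of the virgin mean. In no member did the groups separate, with 0 of 30 non-overlapping in either direction, against 0.0168% of all genes with every multiparous library lower and 0.0168% with every one higher. The 95% intervals of the members' log2 fold changes lay within -0.34 to 0.38, the wide end belonging to the scarce Pfkfb1 and Pgam1.

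**Figure D2:**
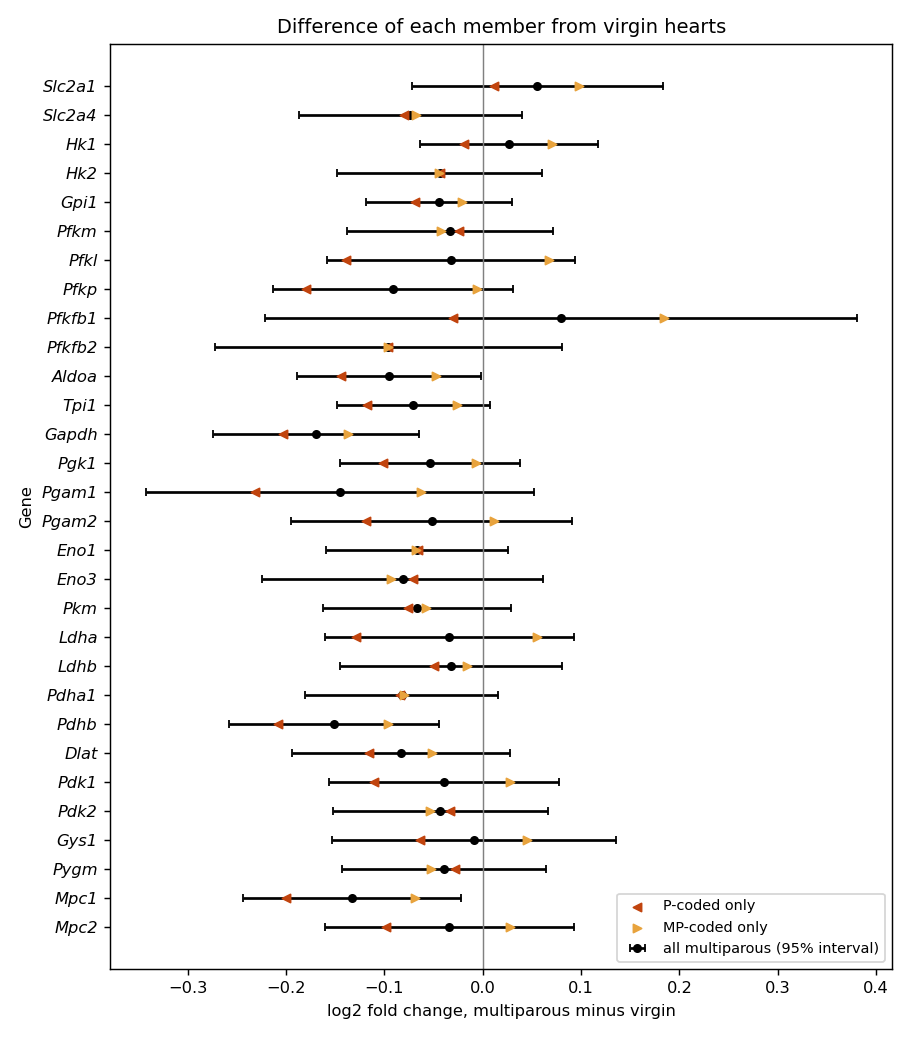
Difference of each member between multiparous and virgin hearts as log2 fold change (black points, with 95% intervals, 8 against 8 libraries), with the values for the 4 P-coded libraries alone and the 4 MP-coded libraries alone as triangles. 27 of the 30 black points lie left of 0, and the intervals of 4 members (Gapdh, Pdhb, Mpc1, Aldoa) end short of 0.

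The glucose transporters did not pass the test. Slc2a4, which encodes GLUT4, ranged from 367 to 428 CPM in multiparous hearts (median 406) and from 337 to 450.1 CPM in virgin hearts (median 440.1). Its log2 fold change was -0.073 ± 0.054 (SE, edgeR adjusted p = 0.793). Only virgin 1, at 337 CPM, and virgin 3 lay under the highest multiparous library, and virgin 1 was the lowest of all 16. Slc2a1, which encodes GLUT1, ranged from 19.5 to 24.6 CPM (median 20.1) in multiparous and from 17.3 to 21.8 CPM (median 20.9) in virgin hearts, a log2 fold change of 0.055 ± 0.061 (SE, edgeR adjusted p = 0.869). The Slc2a1 groups overlapped, with multiparous 8 the highest library and virgin 4 the lowest. Slc2a4 held 95.1% ± 0.339 (SD, n = 8) of the summed per-length level of both transporters in multiparous and 95.4% ± 0.661 in virgin hearts, a difference of -0.366 percentage points (exact two-sided permutation p = 0.190, adjusted over 9 such shares 0.582). Without virgin 1 that difference was -0.574 points and passed (adjusted exact permutation p = 0.0420), while over all its alternatives the adjusted p ran from 0.0420 to 0.851.

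Hexokinases start glycolysis by phosphorylating glucose. Hk2, the insulin-responsive isoform, ranged from 442 to 511 CPM (median 477) in multiparous and from 403 to 544 CPM (median 495) in virgin hearts, a log2 fold change of -0.044 ± 0.050 (SE, edgeR adjusted p = 0.876). The multiparous libraries all fell inside the virgin range. Hk1, the general isoform, was 1 of the 3 members with a higher multiparous mean: 235 to 272 CPM (median 259) against 234 to 276 CPM (median 245), a log2 fold change of 0.027 ± 0.043 (SE, edgeR adjusted p = 0.927). Here too the groups lay over each other. Hk2 made up 72.8% ± 1.26 (SD, n = 8) of the hexokinase level per length in multiparous and 73.6% ± 2.03 in virgin hearts (exact two-sided permutation p = 0.307, adjusted 0.582).

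Among the 5 members of upper glycolysis all means were lower and none passed the test. Pfkm, the muscle phosphofructokinase, ranged from 875 to 955 CPM (median 899) in multiparous and from 769 to 1018 CPM (median 952) in virgin hearts, with a log2 fold change of -0.033 ± 0.050 (SE, edgeR adjusted p = 0.918). Again the multiparous range lay within the virgin range. Pfkp, the platelet-type subunit, ranged from 46.2 to 57.4 CPM (median 51.5) against 49.6 to 63.8 CPM (median 54.9), a log2 fold change of -0.091 ± 0.058 (SE, edgeR adjusted p = 0.753). 3 multiparous libraries lay below the lowest virgin one. 748 of the 13401 exonic bases of Pfkp are shared with Pitrm1 on the opposite strand. Pitrm1 had 3623 reads per library on average against 3019.9 for Pfkp. Overlaps with another gene on the same strand cover 341 of 3340 exonic bases in Pfkm, 1262 of 7254 in Pfkfb2 and 767 of 5001 in Pkm. What these overlaps do to the levels and shares was not tested. Pfkl, the liver-type subunit, averaged 115 ± 12.3 CPM (SD, n = 8) against 118 ± 7.38. Pfkm held 92.8% of the phosphofructokinase level per length in multiparous and 92.7% in virgin hearts (exact two-sided permutation p = 0.832, adjusted 0.990).

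Aldoa splits fructose-1,6-bisphosphate and had the highest level of all members per length. It ranged from 2140.4 to 2491 CPM (median 2257) in multiparous and from 2325 to 2611 CPM (median 2430.3) in virgin hearts. The log2 fold change was -0.095 ± 0.045 (SE, edgeR adjusted p = 0.610; 95% interval -0.19 to -0.0013). 6 of the 8 multiparous libraries lay below the lowest virgin library, while multiparous 3 and 8 sat among the virgin ones. A second table row with the symbol Aldoa held only 2 to 26 reads per library and was left aside. Gpi1, glucose-6-phosphate isomerase, averaged 506 ± 22.9 CPM against 522 ± 16.3 (edgeR adjusted p = 0.809).

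The enzymes that make and degrade fructose-2,6-bisphosphate, the activator of phosphofructokinase, varied widely between libraries. Pfkfb2, the heart isoform, ranged from 51.3 to 75.9 CPM (median 63.2) in multiparous and from 56.3 to 78.9 CPM (median 68.0) in virgin hearts, a log2 fold change of -0.10 ± 0.084 (SE, edgeR adjusted p = 0.829). 2 multiparous libraries lay under the virgin range and the rest inside it. Pfkfb1, the liver and muscle isoform, was scarce, at 12.1 ± 2.25 CPM (SD, n = 8) in multiparous and 11.4 ± 3.09 in virgin hearts (log2 fold change 0.080, 95% interval -0.22 to 0.38). Its virgin libraries spread by 27.1% of their mean, the widest of any member in either group. The Pfkfb2 share of both isoforms was 74.2% ± 5.53 (SD, n = 8) and 76.8% ± 5.10 (exact two-sided permutation p = 0.323, adjusted 0.582).

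The 8 members of lower glycolysis, which turn triose phosphates into pyruvate, all had lower multiparous means (median log2 fold change -0.069), and none passed edgeR's test, while DESeq2 called Gapdh. Gapdh ranged from 2234 to 2565 CPM (median 2494) in multiparous and from 2522 to 2989 CPM (median 2851) in virgin hearts. Its log2 fold change was -0.17 ± 0.050 (SE, edgeR adjusted p = 0.272; 95% interval -0.27 to -0.064). Each of the 8 multiparous libraries was lower than the virgin mean, 4 of them lower than the lowest virgin library, while virgin 1, 7 and 8, at 2522, 2537 and 2582 CPM, lay at the level of the multiparous group. The groups therefore overlapped. Gapdh has 140 other genes with a near-identical stretch, 134 of them pseudogenes. The reads counted to these other genes summed to between 2.97% and 3.96% of Gapdh's own. That sum takes in all reads of each such gene, Peli2 included, which matches over 199 bases and held 1200 reads on average.

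Tpi1, triose-phosphate isomerase, ranged from 464 to 523 CPM (median 476) in multiparous and from 475 to 547 CPM (median 511) in virgin hearts, a log2 fold change of -0.071 ± 0.037 (SE, edgeR adjusted p = 0.666). 4 multiparous libraries lay below the lowest virgin one. Pkm, the muscle pyruvate kinase, averaged 951 ± 35.6 CPM (SD, n = 8) against 996 ± 69.9, and Pgk1, phosphoglycerate kinase, 211 ± 11.1 against 219 ± 13.9. The muscle enolase Eno3 averaged 688 ± 44.5 CPM against 728 ± 89.9, and the general enolase Eno1 127 ± 5.65 against 133 ± 9.87. The muscle phosphoglycerate mutase Pgam2 averaged 247 ± 24.0 CPM against 256 ± 26.2, and the general isoform Pgam1 23.7 ± 2.92 against 26.2 ± 3.99. The muscle form dominated both isoform pairs. Eno3 held 94.35% ± 0.416 (SD, n = 8) of the enolase level per length in multiparous and 94.36% ± 0.737 in virgin hearts (exact two-sided permutation p = 0.973, adjusted 0.990). Pgam2 held 96.1% ± 0.284 (SD, n = 8) of the mutase in multiparous and 95.8% ± 0.611 in virgin hearts (exact two-sided permutation p = 0.285, adjusted 0.582).

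**Figure D3:**
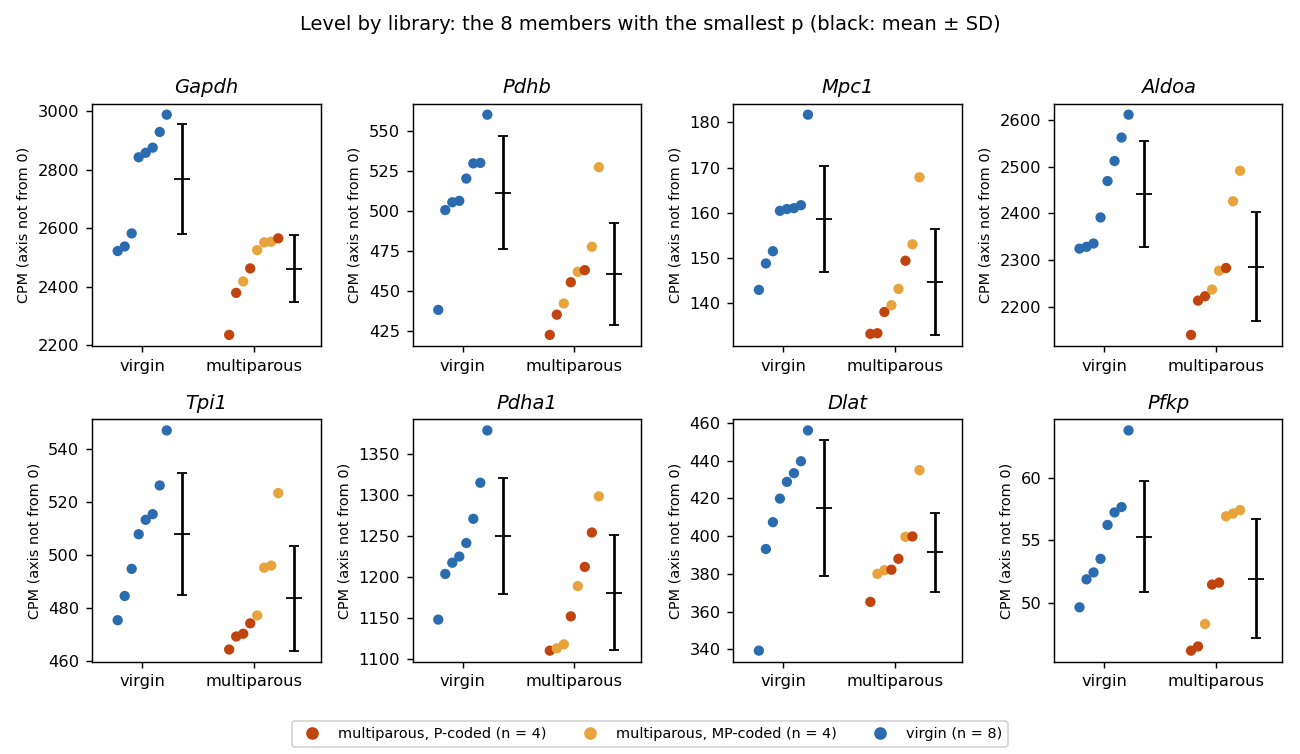
Level in each library, in CPM on axes that do not start at 0, of the 8 members with the smallest unadjusted p, for 8 virgin and 8 multiparous libraries coloured by library code, with mean ± SD in black. In Aldoa 6 multiparous libraries lie below every virgin library, in Gapdh 4 do, and in each of the 8 genes the groups overlap.

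The lactate dehydrogenase subunits lay close to their virgin levels. Ldhb, the subunit that predominates in heart, ranged from 887 to 1084 CPM (median 977) in multiparous and from 835 to 1088 CPM (median 1015) in virgin hearts, a log2 fold change of -0.032 ± 0.054 (SE, edgeR adjusted p = 0.929). Ldha, the subunit of glycolytic muscle and a textbook target of hypoxia signalling, ranged from 363 to 454 CPM (median 413) against 366 to 495 CPM (median 412), a log2 fold change of -0.034 ± 0.060 (SE, edgeR adjusted p = 0.933). Both pairs of groups overlapped almost fully, and virgin 1 was at once the lowest library for Ldhb and the highest for Ldha. The Ldhb share of the level per length was 83.5% ± 1.26 (SD, n = 8) in multiparous and 83.4% ± 2.28 in virgin hearts (exact two-sided permutation p = 0.945, adjusted 0.990).

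Mitochondrial pyruvate entry runs through the carrier made of MPC1 and MPC2. Mpc1 ranged from 133 to 168 CPM (median 141) in multiparous and from 143 to 182 CPM (median 161) in virgin hearts, a log2 fold change of -0.13 ± 0.053 (SE, edgeR adjusted p = 0.506). 4 multiparous libraries lay under the virgin range, and multiparous 3, at 168 CPM, was above all but 1 virgin library. A pair of Mpc1 pseudogenes held reads worth between 20.9% and 26.5% of its own; with the reads of near-identical copies added, the Mpc1 log2 fold change was -0.13 (edgeR adjusted p = 0.491). Mpc2 ranged from 145 to 181 CPM (median 158) against 133 to 179 CPM (median 167), a log2 fold change of -0.034 ± 0.060 (SE, edgeR adjusted p = 0.934), with both ranges lying almost entirely over each other. Mpc1 made up 76.3% ± 1.15 (SD, n = 8) of the carrier level per length in multiparous and 77.6% ± 1.45 in virgin hearts. The difference of -1.26 points had the smallest p of the 9 shares but missed the threshold (exact two-sided permutation p = 0.0746, adjusted 0.582). The size of this share rests on exon length, 2082 bases for Mpc1 and 7344 for Mpc2. In CPM without length Mpc2 had the higher mean, 158 against 145 in multiparous and 162 against 159 in virgin hearts.

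The 3 members of the pyruvate dehydrogenase complex, which turns pyruvate into acetyl-CoA, had lower multiparous means and none passed the test. Pdhb ranged from 422 to 527 CPM (median 459) in multiparous and from 438 to 560.3 CPM (median 513) in virgin hearts, a log2 fold change of -0.15 ± 0.051 (SE, edgeR adjusted p = 0.362). The groups overlapped, with 2 multiparous libraries below the lowest virgin one. Apart from virgin 1, at 438 CPM, the virgin libraries ran from 500.5 to 560.3 CPM. Apart from multiparous 3, at 527 CPM, the multiparous ones ran from 422 to 478 CPM. These 2 exceptions were picked after the values were seen. Pdha1, the alpha subunit of the same enzyme, ranged from 1109.9 to 1298 CPM (median 1170.2) against 1148 to 1379 CPM (median 1233), a log2 fold change of -0.082 ± 0.047 (SE, edgeR adjusted p = 0.704). Dlat, the acetyltransferase core, ranged from 365 to 435 CPM (median 385) against 339 to 456 CPM (median 424), a log2 fold change of -0.083 ± 0.053 (SE, edgeR adjusted p = 0.752). In Dlat virgin 1 was the lowest of all libraries and multiparous 3 the highest of its group.

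The dehydrogenase kinases, which inactivate the complex, were near their virgin levels. Pdk2 ranged from 376 to 455 CPM (median 405) in multiparous and from 345 to 442 CPM (median 432) in virgin hearts, a log2 fold change of -0.043 ± 0.052 (SE, edgeR adjusted p = 0.883). Pdk1 averaged 259 ± 25.5 CPM (SD, n = 8) against 267 ± 14.8. Pdk2 held 79.5% of the level of both in either group (exact two-sided permutation p = 0.990).

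Gys1 had the smallest difference of the 30 members. It encodes the muscle glycogen synthase and ranged from 144 to 211 CPM (median 166) in multiparous and from 142 to 188 CPM (median 170.1) in virgin hearts, a log2 fold change of -0.0084 ± 0.069 (SE, edgeR adjusted p = 0.991). Pygm, which releases glucose-1-phosphate from glycogen, ranged from 1169.9 to 1379 CPM (median 1277) against 1118 to 1422 CPM (median 1352), a log2 fold change of -0.040 ± 0.050 (SE, edgeR adjusted p = 0.890). In both genes the groups overlapped through most of their range.

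**Figure D4:**
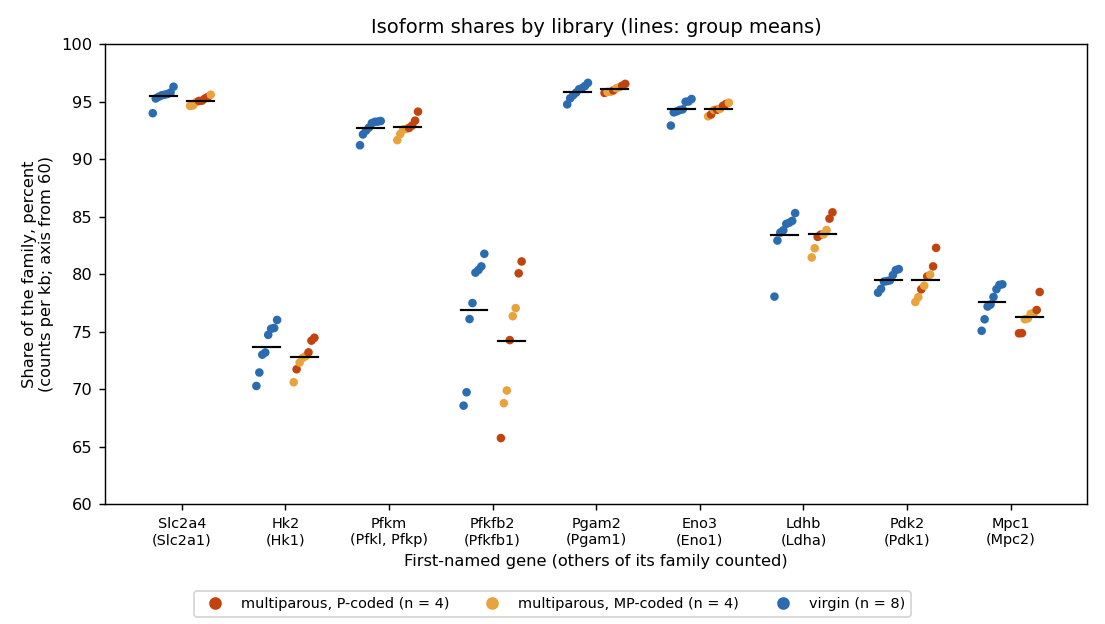
Share of the per-length level held by the first named gene of each isoform group or carrier, in percent, for each of 8 virgin and 8 multiparous libraries coloured by library code, with black bars at the means. The first named gene holds over 70% in each group mean. None of the 9 shares passed the test with all 16 libraries, and virgin 1 is low for Slc2a4 and Ldhb.

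The members were also counted library by library. The number of the 30 members under their own 16-library median was 21, 24, 4, 17, 25, 21, 25 and 18 in multiparous 1 to 8, and 25, 6, 6, 10, 5, 3, 23 and 7 in virgin 1 to 8. By this count multiparous 3 was like most of the virgin hearts, and virgin 1 and virgin 7 were like most of the multiparous hearts. The summed level of the 30 members was 15649.6 to 16193 CPM in 7 multiparous libraries and 17381 CPM in multiparous 3. In virgin hearts it was 17032 to 18211 CPM apart from virgin 1 (15319 CPM) and virgin 7 (16118 CPM). Without virgin 1, 10 members were at an unadjusted p under 0.05 with lower means in place of 4, where 5.94% of all genes were, and 0 were called. Without multiparous 3 there were 6 (all genes 4.78%), and without virgin 6 there were 2 (all genes 3.81%), again with 0 called. The spread between virgin hearts was the larger in 21 of 30 members, with a median coefficient of variation of 7.81% against 6.23%.

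**Figure D5:**
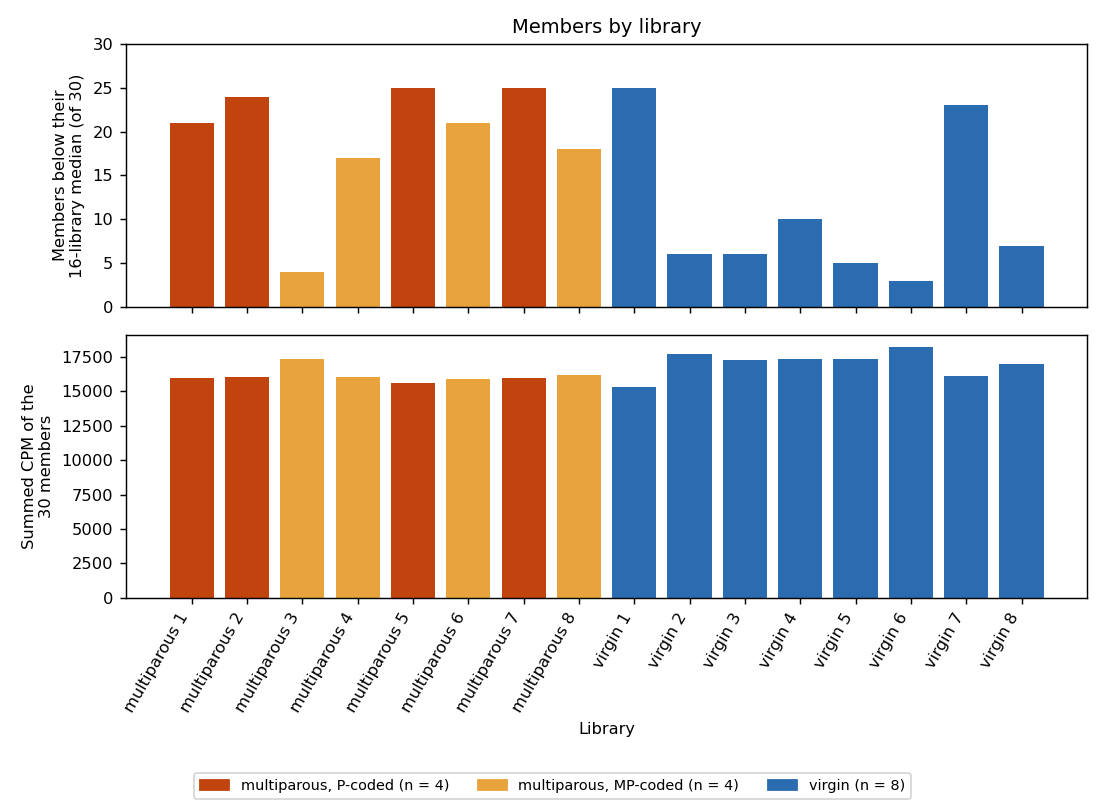
For each of the 16 libraries, the number of the 30 members under their own median over all libraries (upper bars) and the summed CPM of the members (lower bars), coloured by library code. Multiparous 3 (4 members under the median) sits with most virgin libraries, and virgin 1 (25) and virgin 7 (23) sit with the multiparous ones.

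Other measures differed beside the members. For the marker counts below, 51.4% of all genes tested had a lower mean. At an unadjusted p under 0.05, 4.09% of all genes tested were lower and 4.04% higher. Of 17 cardiomyocyte markers such as Myh6 and Tnnt2, 16 had lower multiparous means (median log2 fold change -0.098, 6 at an unadjusted p under 0.05, 0 called by edgeR and 1, Csrp3, by DESeq2), with sums of 97647 to 116130 CPM in multiparous and 90374 to 124514 CPM in virgin hearts; in bulk tissue fewer cells of a type and less RNA per cell cannot be told apart. With the mean cardiomyocyte marker level as a covariate, 17 of the 30 members were lower, as were 9249 of 17813 genes. The members' median log2 fold change was then -0.015, while Gapdh was at -0.14 and Pdhb at -0.090. In that fit 3 members were lower at an unadjusted p under 0.05, as were 959 of 17813 genes. Of 13 fibroblast markers 10 were higher (median 0.19, 6 at an unadjusted p under 0.05, 0 called by edgeR and 3, Fbln1, Gsn and Pi16, by DESeq2), with sums of 1774 to 2605 against 1590 to 2177 CPM, and all 10 macrophage markers were higher (median 0.14, 0 at an unadjusted p under 0.05 and 0 called by edgeR or DESeq2). Of 10 liver markers 7 were tested, 5 higher and 2 lower (median 2.36), with 5 higher and 1 lower at an unadjusted p under 0.05, 0 called by edgeR and 4, Ahsg, Alb, Apoa1 and Apoa2, by DESeq2. Liver marker sums were 5.26 to 335 CPM in multiparous and 4.38 to 230.4 CPM in virgin hearts. Of 20 kidney tubule markers 17 were tested and 16 were lower (15 at an unadjusted p under 0.05; edgeR called 0, DESeq2 14, and edgeR without virgin 1 called 2, Cltrn and Slc22a8), with sums of 37.7 to 70.2 CPM in multiparous and 53.8 to 178 CPM in virgin hearts, highest in virgin 3, 1 and 6. Without these 3 libraries 24 of 30 members were lower, with a median of -0.061, where 8954 of 18393 genes were lower. At an unadjusted p under 0.05, 4 members were lower, as were 749 of 18393 genes. With the kidney tubule marker level as a covariate 23 of 30 members were lower, with a median of -0.049, where 8783 of 17813 genes were lower. At that mark 1 member was lower, as were 514 of 17813 genes. Endothelial markers were lower in 5 and higher in 5 of 10 (1 higher at an unadjusted p under 0.05). Smooth muscle and pericyte markers were also lower in 5 and higher in 5 of 10 (2 lower and 1 higher at that mark). The 4 erythroid (median 0.70) and 2 adipocyte markers tested (median 0.63) were all higher. Skeletal muscle markers were lower in 3 and higher in 2 of 5 tested, and neuron markers in 1 and 4 of 5. In these lists edgeR called 0 and DESeq2 called 1, Adipoq. The part of these measures in the members' differences was not tested further.

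The members were then compared within the multiparous group. Between MP-coded and P-coded libraries (4 against 4), edgeR called 0.121% of 18123 genes and 0 members, and DESeq2 also called 0 members. 23 of the 30 members had the higher mean in the MP-coded libraries (median log2 fold change 0.084) and 7 the lower one, against 49.4% of all genes with a lower mean. 3 members, Ldha, Pfkl and Pfkp, were higher at an unadjusted p under 0.05, where 5.93% of all genes were, and 0 were lower, where 5.07% were. Ldha ran from 363 to 409.8 CPM in the P-coded and from 416 to 454 CPM in the MP-coded libraries, without overlap, a log2 fold change of 0.18 ± 0.060 (SE, edgeR adjusted p = 0.294). Tpi1 did not overlap either, at 464 to 474 against 477 to 523 CPM. These are 2 of 30 members, and 2.96% of all genes separated with the MP-coded libraries higher and 2.92% with them lower.

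Both codes were set beside the same 8 virgin libraries, so the following values share them. For the P-coded libraries edgeR called 0.521% of 18612 genes and 0 members. 29 of the 30 members had lower means (53% of all genes did), the median log2 fold change was -0.090, and 6 members (Gapdh, Pdhb, Mpc1, Pfkp, Aldoa and Tpi1) were lower at an unadjusted p under 0.05, where 4.46% of all genes were. At that mark 0 members were higher, where 3.83% of all genes were. Aldoa (2140.4 to 2283 CPM) and Tpi1 (464 to 474 CPM) lay wholly below the virgin libraries in these 4, where 0.634% of all genes did and 0.424% lay wholly above. For the MP-coded libraries edgeR called 0% of 18442 genes and 0 members, 21 of 30 members had lower means (51% of all genes did), the median was -0.044, and 0 members reached an unadjusted p under 0.05, where 4.27% of all genes were lower and 4.38% higher. Gapdh was at a log2 fold change of -0.20 in the P-coded and -0.14 in the MP-coded libraries, and Pdhb at -0.21 and -0.096.

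Other genes of glucose metabolism gave no call either, by edgeR, limma voom or DESeq2, in any of 6 lists. For the counts of each list, 51.4% of all genes tested had a lower mean. At an unadjusted p under 0.05, 4.09% of all genes tested were lower and 4.04% higher. Of 27 further genes of glycolysis and pyruvate use 25 were tested, 13 with lower and 12 with higher means (median log2 fold change -0.0063, 3 lower and 1 higher at an unadjusted p under 0.05). Slc16a1, the lactate and pyruvate transporter MCT1, measured 303 ± 17.7 CPM (SD, n = 8) in multiparous and 342 ± 31.3 in virgin hearts (edgeR adjusted p = 0.315). Pdhx, a structural subunit of the dehydrogenase complex, measured 121 ± 9.07 against 132 ± 7.78 CPM (edgeR adjusted p = 0.523). Pdk4, the kinase induced by fasting and fatty acids, measured 271 ± 91.2 against 259 ± 49.5 CPM (edgeR adjusted p = 0.966).

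Of 24 further glycogen genes 15 had lower and 9 higher means (median -0.024, 4 lower and 2 higher at an unadjusted p under 0.05). Ugp2, which makes UDP-glucose, measured 308 ± 35.4 against 354 ± 38.1 CPM (edgeR adjusted p = 0.467), Phka2, a phosphorylase kinase subunit, 25.2 ± 1.32 against 23.0 ± 1.72, and Nhlrc1, the ubiquitin ligase malin, 6.88 ± 0.412 against 7.95 ± 1.13. Of 10 genes of the NADH shuttles 8 were lower and 2 higher (median -0.065, 2 lower at an unadjusted p under 0.05). The aspartate-glutamate carrier Slc25a13 measured 132 ± 5.03 against 146 ± 9.78 CPM (edgeR adjusted p = 0.262), the mitochondrial aspartate aminotransferase Got2 889 ± 39.8 against 959 ± 71.6, and the carrier Slc25a12 228 ± 12.4 against 242 ± 17.4.

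Of 18 genes of the pentose phosphate, hexosamine and polyol branches 8 were lower and 10 higher (median 0.020, 1 higher at an unadjusted p under 0.05). That was Gfpt2, the gate enzyme of the hexosamine branch, at 24.1 ± 3.78 against 18.8 ± 4.67 CPM (log2 fold change 0.36 ± 0.14 SE, edgeR adjusted p = 0.491), with Khk at 8.15 ± 0.641 against 7.51 ± 0.625 and Pgm3 at 7.36 ± 0.543 against 7.01 ± 0.521. Of 38 regulators 19 were lower and 19 higher (median 0.0011, 2 at an unadjusted p under 0.05 in each direction). The carbohydrate response factor Mlxipl measured 29.3 ± 4.81 against 34.2 ± 3.61 CPM (edgeR adjusted p = 0.516), the AMP kinase subunit Prkag2 30.04 ± 1.99 against 28.0 ± 1.30, and Arrdc4 15.7 ± 2.40 against 17.9 ± 2.00. Of 12 hypoxia-induced genes outside glycolysis 11 were tested, 8 lower and 3 higher (median -0.017, 1 lower at an unadjusted p under 0.05). Vegfa, the angiogenic growth factor, measured 223 ± 25.9 against 258 ± 17.6 CPM (log2 fold change -0.21 ± 0.064 SE, edgeR adjusted p = 0.279), Kdm3a 32.96 ± 2.26 against 31.4 ± 2.99 and Higd1a 57.3 ± 6.15 against 60.3 ± 4.37. Hif1a, the oxygen-regulated factor itself, measured 111 CPM in multiparous and 110.2 in virgin hearts.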

How the data were processed

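The 16 heart RNA libraries were read from both ends, 150 bases each, per the labels. Per the submitters' processing notes the authors used Trim Galore 0.6.10, cutadapt 4.8, STAR 2.7.11b, SAMtools 1.19.2 and HTSeq 0.11.1 on GRCm38.p6; the sources used here give neither annotation release nor strand setting. The deposited values are raw gene counts per library. Rows for reads without an assigned gene, ambiguous and not uniquely aligned reads included, held 26.5% to 33.1% of each library and were left out.

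Members and lists were chosen with earlier results of these data known. edgeR 4.0.16 (R 4.3.3) fitted all genes passing filterByExpr, with TMM factors (0.944 to 1.065), the quasi-likelihood test, Benjamini-Hochberg adjustment and a threshold of 0.05. Limma 3.58.1 (voom) and DESeq2 1.42.0 were alternatives, with other factors, filters, covariates and left-out libraries. CPM are TMM-scaled, and SE is the log2 fold change over the root of F. Isoform shares used exact permutation over 12870 assignments. Lengths and overlaps follow GENCODE M21 (GRCm38), to which 99.53% of gene IDs matched. A near-identical copy is a gene whose transcript matches a member over at least 150 bases at 95% identity or more. Scripts were tested on simulated data. Libraries of a group were checked for duplicates over 56 pairs, whose counts differed by at least 8.93 chi-square per degree of freedom. Full statistics go to the 8 members with the smallest p and to 15 set by role, others by mean and SD, and each other list is represented by its 3 smallest p, apart from 1 gene that is not reported here; Pdk4 and Hif1a were added after their values were seen.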

Additional observations from a re-analysis of the deposited data

Results flagged for a closer look

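In total 80 sets of 8 values from a single group were examined (members' CPM, isoform shares and sums). In 7 of them the highest or lowest library was set apart by a gap that is large for the group's range. Chance flags about 1 in 20 independent sets. These sets share libraries and counts, so 7 of 80 cannot be weighed against that rate. Multiparous 3 had the highest summed CPM of the 30 members in its group, 17381 CPM, where the next library had 16193. The other 6 are low values of virgin 1 among virgin hearts. Slc2a4 was 337 CPM there (next lowest 401), Hk2 403 CPM (next 483), Pdk1 234 CPM (next 263) and Pdk2 345 CPM (next 418). The Slc2a4 share of the glucose transporters was 94.0% (next 95.3%), and the Ldhb share of lactate dehydrogenase was 78.0% (next 82.9%). Virgin 1 also had the lowest cardiomyocyte marker sum of the 16 libraries, 90374 CPM, and a kidney tubule marker sum of 165 CPM.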

How the results depend on the processing

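Over 30 alternatives, 3 of them chosen after seeing the data (leaving out the 3 libraries with the most kidney tubule signal, adding near-identical copies, and a cardiomyocyte marker covariate), 15 of the 30 members kept the direction of their log2 fold change, among them Gapdh, Pdhb, Mpc1 and Aldoa. The number of members called stayed at 0 except under DESeq2, which called 1. The count of genes called higher and lower was 105 and 145 with DESeq2, 5 and 51 without a filter on low counts, 56 and 41 for the P-coded libraries alone and 0 and 2 without the kidney-rich libraries, and 2 were higher with limma voom. It was 0 and 0 without normalization factors, for the MP-coded libraries alone, and with a kidney or cardiomyocyte covariate. With the replicate block it was 7 and 26. Same-numbered libraries correlated between -0.11 and 0.29. Differently numbered ones were not set beside them, so this cannot decide whether the numbers pair the samples. Leaving out 1 library gave 0 to 22 higher and 0 to 33 lower, the most without virgin 7, and 25 to 27 members lower. Between MP- and P-coded libraries DESeq2 called 237 higher and 140 lower, and leaving out 1 library gave 3 to 49 and 0 to 148, the most without multiparous 5. With the cardiomyocyte covariate 17 members were lower, where 9249 of 17813 genes were, and with the kidney covariate 23, where 8783 were. Without normalization factors 22 members were lower, where 6480 of 17813 genes were. The cause of these shifts was not tested.

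Log2 fold changes that changed sign were small. With the cardiomyocyte covariate they were 0.042 for Hk2, 0.050 for Pfkm, 0.034 for Pgam2, 0.021 for Eno3, 0.055 for Ldhb, 0.022 for Pdk1, 0.0093 for Pdk2, 0.065 for Gys1, 0.034 for Pygm and 0.049 for Mpc2. Without factors they were 0.0035 for Pfkm, 0.0017 for Pfkl, 0.0033 for Ldhb, 0.026 for Gys1 and 0.0025 for Mpc2, with all genes' median at 0.030. With the kidney covariate they were 0.0097 for Pfkl, 0.011 for Eno1, 0.071 for Ldha and 0.035 for Gys1, and without the kidney-rich libraries 0.0036 for Eno1, 0.024 for Ldha and 0.0048 for Gys1. For P-coded libraries alone they were -0.019 for Hk1 and -0.030 for Pfkfb1, and for MP-coded ones 0.067 for Pfkl, 0.011 for Pgam2, 0.055 for Ldha, 0.028 for Pdk1, 0.045 for Gys1 and 0.028 for Mpc2. Leaving out 1 library gave -0.060 to 0.023 for Gys1, -0.060 to 0.0035 for Ldha and -0.060 to 0.0054 for Pfkl. For shares it gave -0.22 to 0.11 points for Eno3, -0.68 to 0.37 for Ldhb, -0.41 to 0.27 for Pdk2 and -0.13 to 0.24 for Pfkm, and 0 to 1 shares past the threshold, the 1 being Slc2a4 without virgin 1. Without division by length the Pdk2 share differed by 0.016 points.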
